A study of Danio rerio with 8 samples.

Results

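The zebrafish genes of 4 enzymes of hormone and vitamin D metabolism were followed across 8 liver libraries: hsd11b2 (NM_212720), dio2 (NM_212789), cyp24a1 (NM_001089458) and dhrs11b.2 (NM_001002696). They were found by RefSeq accession, are 4 of the 15600 transcript rows listed in at least 1 library, and each has a single row. They were chosen because their levels stood far apart in M+D+ or M-D+ livers, so their differences in those groups are given as values without a test.

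Transcripts were counted by 3' RNA-SAGE on the SOLiD sequencer, an assay that reads 1 short tag per transcript, close to its 3' end. The study set liver tumours against 3 kinds of control liver, with 2 libraries in each of 4 groups. M+D+ fish carry the transgene Tg(fabp10:TA; TRE:Myc; krt4:GFP) and received doxycycline, which lets a transactivator driven by the liver promoter fabp10 switch on Myc, and their livers are labelled tumours. M-D+ fish were wild-type siblings on doxycycline, M+D- fish carried the transgene without the drug, and M-D- fish were wild-type siblings without it. Treatment began 21 days after fertilization, with around 25 fish to a 6-L tank. The sources used here do not give the dose, the duration, the sex of the fish or the number of livers in a library, so p-values measure the spread between libraries, which may be technical.

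The liver is a main site where hormones are activated and inactivated. Hsd11b2 oxidizes cortisol, the glucocorticoid of fish, to inactive cortisone, and belongs to the short-chain dehydrogenases. Dio2 removes an outer-ring iodine from thyroxine and so makes the active thyroid hormone triiodothyronine, and it is a selenoprotein. Cyp24a1 is the mitochondrial cytochrome P450 that hydroxylates vitamin D metabolites at carbon 24 to start their breakdown, and in vertebrates its gene is a well-known target of the vitamin D receptor. The gene dhrs11b.2 encodes another short-chain dehydrogenase, and its human relative DHRS11 reduces ketosteroids.

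Library totals ran from 1682372 tags (M-D+ library 1) to 6399932 tags (M+D+ library 1). Values are in CPM, tag counts that the authors scaled to a common library total, and log2 differences are on the log2(CPM + 1) scale, which understates differences of low rows. The liver marker fabp10a, a fatty acid-binding protein, stood at 129776 to 187914 CPM in M+D+ and at 79291 to 210286 CPM in the control libraries, the lowest being M-D+ library 1. Of all tested rows, limma called 20.7% lower and 2.32% higher in M+D+ relative to the average of the 3 control groups (adjusted p below 0.05). Of 8 tested hepatocyte markers 2 fell in this comparison and none rose, with a median log2 difference of -0.80. They were ahsg2 (257.97 and 486.37 CPM in M+D+, 1719.60 to 3787.41 CPM in controls, log2 difference -2.80 ± 0.36, limma adjusted p = 0.00618) and apobb.1 (-1.35 ± 0.34, limma adjusted p = 0.0278; 0.181 after TMM scaling). The fibrinogen gene fgb also lay below every control library in M+D+ (2851.28 and 3847.33 CPM, against 5035.15 CPM or more). So did 26.9% of all tested rows, and fgb did not pass (limma adjusted p = 0.0616, and 0.421 after TMM scaling). The part of these markers in the low hsd11b2 and dio2 values of M+D+ was not tested. A CPM value is a share of its library, so a few abundant rows can shift all others. TMM (trimmed mean of M-values), a scaling against such shifts, gave factors of 0.696 and 0.857 for M+D+, 1.745 and 1.426 for M-D+, and 0.814 to 0.958 for the remaining libraries. On deposited CPM the median log2 difference of the 4577 rows tested was -0.57 between M+D+ and the averaged controls (the mean of the 3 control groups) and 0.72 between M-D+ and M-D-. After TMM scaling these medians were -0.12 and -0.04, so values after TMM scaling are given beside the members as well. In bulk liver RNA, fewer cells of a type and less RNA per cell cannot be told apart.

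The cortisol-inactivating hsd11b2 stood lowest in M+D+. It had 0.78 and 3.14 CPM in M+D+ libraries 1 and 2 (5 and 9 tags), 35.66 and 202.06 CPM in M-D+, 203.15 and 70.06 CPM in M+D-, and 37.48 and 44.02 CPM in M-D-. Both M+D+ libraries lay below all 6 control libraries, whose median was 57.0 CPM, as in 26.9% of all tested rows. The exact Poisson 95% intervals of the tags (counting error only) were 0.254 to 1.82 and 1.44 to 5.97 CPM in M+D+ libraries 1 and 2. The difference between M+D+ and the averaged controls was -4.80 on the log2 scale (27.9-fold lower), and only 3 of the 4577 rows lay lower. It ranged from -5.41 to -3.55 over 18 other settings and was -4.47 after TMM scaling.

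Against the group that shares its transgene, M+D-, hsd11b2 was lower in M+D+ by a log2 difference of -5.47, with 1 of the tested rows lower still. Among the controls its level was uneven. Averages were 119 ± 118 CPM in M-D+, 137 ± 94.1 CPM in M+D- and 40.8 ± 4.62 CPM in M-D- (SD, n = 2 each). The averages of M-D+ and M+D- differed by less than the spread between their libraries. The 2 M-D+ libraries, 5.67-fold apart, lay on either side of the M-D- libraries. The M-D+ minus M-D- difference of 1.05 depended on them: leaving out library 1 of M-D+ gave 2.29 and leaving out library 2 gave -0.18.

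The thyroxine-activating dio2 stood low in M+D+ and high in M-D+. It had 10.78 and 94.62 CPM in M+D+, 1236.94 and 1058.76 CPM in M-D+, 339.58 and 168.20 CPM in M+D-, and 216.71 and 189.08 CPM in M-D-. Both M+D+ libraries lay below all 6 control libraries, as in 26.9% of all tested rows, and both M-D+ libraries lay above all the others. The share of rows with M-D+ above all the others was not counted. The log2 difference was -3.51 (11.4-fold lower) between M+D+ and the averaged controls, with 13 rows lower still, and -3.03 after TMM scaling.

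The M+D+ libraries were 8.78-fold apart in dio2. Only 47 of 4577 rows had a larger gap between these libraries, and the difference from the controls was -2.0 with library 1 of M+D+ left out and -5.02 with library 2 left out. Between M-D+ and M-D- the log2 difference of dio2 was 2.49 (5.63-fold higher), with 61 rows higher still. It stayed positive in all 17 other settings, between 1.66 (after TMM scaling) and 2.61. In transgenic fish, on the other hand, M+D+ minus M+D- was -2.84. The doxycycline groups thus lay on opposite sides of their undosed siblings in the 2 genotypes, in every library. This difference was not tested because dio2 was chosen on these values. On deposited CPM, 42.7% of all tested rows had both M+D+ libraries below both M+D- libraries. Both M-D+ libraries lay above both M-D- libraries in 59% of rows. The share of rows with both patterns was not counted.

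The vitamin D 24-hydroxylase cyp24a1 stood highest in M-D-. It had 77.03 and 48.53 CPM in M+D+, 29.13 and 5.21 CPM in M-D+, 15.73 and 235.39 CPM in M+D-, and 429.79 and 430.42 CPM in M-D-. The M-D- libraries lay above all 6 libraries with the drug, the transgene or both. Of all tested rows, 5.75% had both M-D+ libraries below both M-D- libraries, and 24.8% had both M+D- libraries below them. The share of rows with all 6 libraries below was not counted. Between M-D+ and M-D- the log2 difference was -4.98 (31.5-fold lower), the lowest of all 4577 rows on deposited CPM. It ranged from -6.12 to -3.84 over 17 other settings and was -5.75 after TMM scaling.

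In M+D+ the level of cyp24a1 lay above that of M-D+ and inside the range of the M+D- libraries. From the averaged controls M+D+ differed by -0.21, with a standard error of 0.94. With M-D+ left out of the controls the difference was -1.41, the farthest from -0.21 among 18 settings. The sign turned positive after TMM scaling (0.26) and on leaving out M+D- library 2 (0.43), M-D+ library 1 (0.17) or M+D+ library 2 (0.12). The M+D- libraries were 15.0-fold apart, and 1 of the 4577 rows had a larger gap between them. M+D- library 1 held the lower cyp24a1 value and the higher hsd11b2 and dio2 values.

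The short-chain dehydrogenase dhrs11b.2 stood highest in M-D+. It had 6.09 and 37.36 CPM in M+D+, 253.21 and 89.70 CPM in M-D+, 27.49 and 69.40 CPM in M+D-, and 9.31 and 6.07 CPM in M-D-. On deposited CPM both M-D+ libraries lay above all the others, and both M-D- libraries lay below all of M-D+ and M+D-. After TMM scaling, library 2 of M-D+ (62.9 CPM) lay below library 2 of M+D- (76.6 CPM). Of all tested rows on deposited CPM, 59% had both M-D+ libraries above both M-D- libraries, and 27.4% had both M+D- libraries above them. The share of rows with the whole pattern of dhrs11b.2 was not counted. From M-D- the M-D+ mean differed by 4.15 on the log2 scale (17.8-fold higher), the highest of all 4577 rows, and it ranged from 3.34 (after TMM scaling) to 4.90 over 17 other settings. The M+D+ libraries, 6.13-fold apart, overlapped those of M+D- and M-D-. M+D+ differed from the averaged controls by -1.23 on the log2 scale, which was -0.01 with library 1 of M+D+ left out and -2.45 with library 2 left out.

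**Figure D1:**
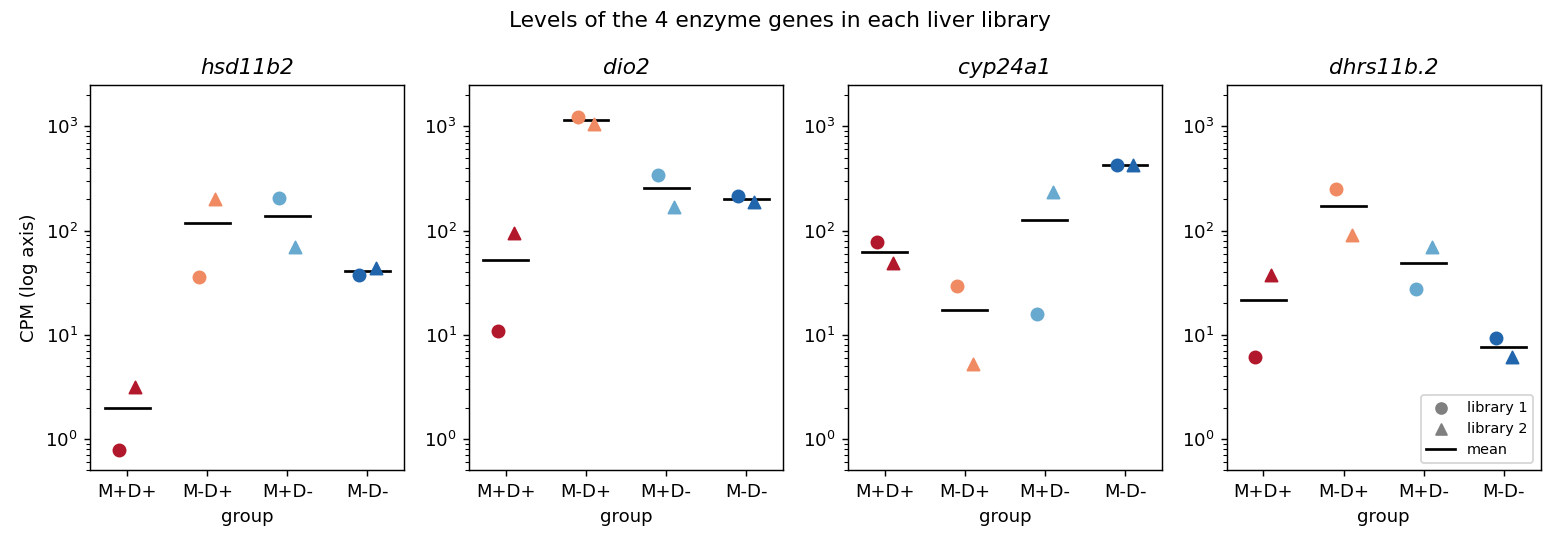
Level in CPM on a log axis (y) of each gene in the 4 groups (x); circles are library 1, triangles library 2, and bars the mean of the 2 libraries. The hsd11b2 values of M+D+ (0.78 and 3.14 CPM) and the dio2 values of M+D+ (10.78 and 94.62 CPM) lie below all control libraries, cyp24a1 is highest in M-D- (429.79 and 430.42 CPM), and dhrs11b.2 is highest in M-D+ (253.21 and 89.70 CPM).

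Side by side, the 4 genes differed in the order of their groups. In M+D+ 2 of them, hsd11b2 and dio2, lay below all control libraries, as did 26.9% of all tested rows, and below both M+D- libraries, as did 42.7%. Below both M-D+ libraries lay hsd11b2, dio2 and dhrs11b.2, as did 65.2% of rows, and above them cyp24a1, as did 6.51%. In M-D+, dio2 and dhrs11b.2 lay above both M-D- libraries, as did 59% of rows on deposited CPM, and cyp24a1 lay below both, as did 5.75% of rows. These shares are the background of the choice, and nothing was read from them about the 4 genes. Over the 8 libraries, which share the same RNA pools and scaling for every gene, Pearson's r of log2(CPM + 1) was 0.797 between hsd11b2 and dio2, 0.708 between dio2 and dhrs11b.2, 0.380 between hsd11b2 and dhrs11b.2, and -0.267, -0.411 and -0.578 between cyp24a1 and hsd11b2, dio2 and dhrs11b.2.

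**Figure D2:**
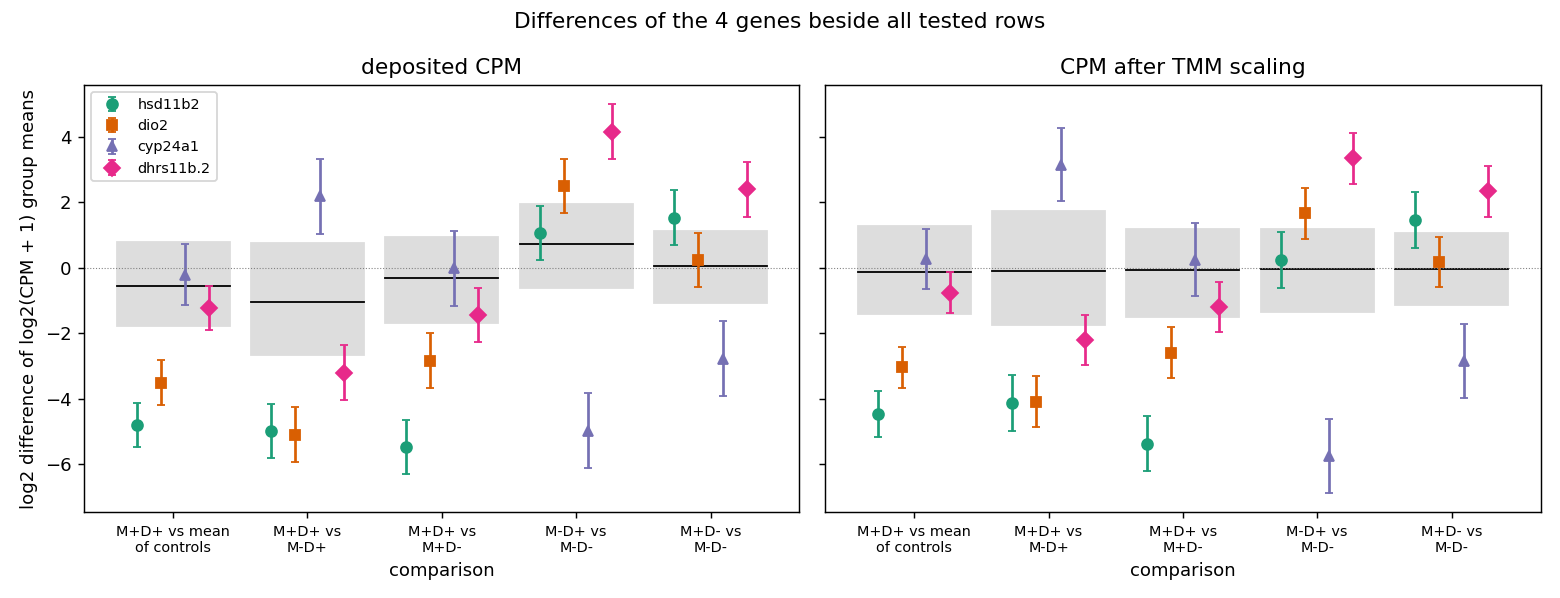
Log2 difference of group means of log2(CPM + 1) (y) for 5 comparisons (x), on deposited CPM (left) and after TMM scaling (right); symbols are the 4 genes with the standard error of the fit, grey boxes span the 5th to 95th percentile of all 4577 tested rows, and black lines mark their median. The rows as a whole shift between the panels (median 0.72 and -0.04 in M-D+ against M-D-), while hsd11b2 and dio2 in M+D+ and cyp24a1 and dhrs11b.2 in M-D+ stay outside the boxes in both.

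The comparison of uninduced transgenic livers with wild-type livers, M+D- against M-D-, was the one not itself used to choose the genes. It shares the M-D- libraries with the doxycycline comparison, and both its groups are among the averaged controls of M+D+. Its p-values and intervals for the 4 genes are thus not independent of the choice. None of the 4 genes passed the test, and none of all 4577 rows did (0.0% called by limma at an adjusted p below 0.05, 419 rows at an unadjusted p below 0.05; edgeR called 0 rows and DESeq2 36). The log2 difference was 2.39 ± 0.83 (SE) for dhrs11b.2 (95% interval 0.47 to 4.31, limma adjusted p = 0.506) and -2.78 ± 1.15 for cyp24a1 (95% interval -5.42 to -0.14, limma adjusted p = 0.528). It was 1.53 ± 0.83 for hsd11b2 (95% interval -0.37 to 3.43, limma adjusted p = 0.561) and 0.24 ± 0.83 for dio2 (95% interval -1.68 to 2.16, limma adjusted p = 0.942). Both M+D- libraries lay above both M-D- libraries for dhrs11b.2 and hsd11b2, as for 27.4% of rows, and below them for cyp24a1, as for 24.8% of rows, whereas the dio2 values overlapped. Over 17 other settings the adjusted p ran from 0.0664 to 1.0 for dhrs11b.2, from 0.353 to 1.0 for cyp24a1 and hsd11b2 each, and from 0.845 to 1.0 for dio2. The intervals are not adjusted for the number of rows and include several-fold differences in every gene. They exclude 0 for dhrs11b.2 and cyp24a1 (limma unadjusted p = 0.0207 and 0.0415) and include it for hsd11b2 and dio2. After adjustment no shift of the 4 genes with the uninduced transgene was detected with 2 libraries a group, and none is shown to be absent.

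Close relatives and receptors of the 4 genes were read next. The deiodinase dio1, which also makes triiodothyronine and clears iodothyronines in liver, had 16.09 and 31.77 CPM in M+D+, 80.24 and 65.01 CPM in M-D+, 108.75 and 73.60 CPM in M+D-, and 46.34 and 72.21 CPM in M-D-. Relative to the averaged controls it fell in M+D+ by 1.63 ± 0.33 on the log2 scale (limma adjusted p = 0.0164; adjusted p = 0.0397 after TMM scaling, 0.0703 by edgeR), and did not pass with library 1 of M+D+ left out. Between M-D+ and M-D- it differed by 0.31 ± 0.41 (limma adjusted p = 0.583), where dio2 stood 5.63-fold higher.

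The gene next to dhrs11b.2 in the RefSeq order is dhrs11b.1, with 0 protein-coding genes between them. It had 9.69 and 10.13 CPM in M+D+, 51.12 and 19.71 CPM in M-D+, 19.32 and 20.56 CPM in M+D-, and 12.27 and 23.20 CPM in M-D-. It passed the test in none of the 3 comparisons (limma adjusted p = 0.0761 for M+D+ against the controls, 0.204 for M-D+ against M-D- and 0.896 for M+D- against M-D-). Tags could be shared between these neighbours if their 3' ends are near-identical, and the rule used for shared tags is unknown here. The third relative, dhrs11a, had 0 to 2 tags in every library.

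The gene hsd11b1la, a relative of the mammalian cortisone reductase gene, had 0 to 2 tags a library. The receptors were near the limit of counting as well. The glucocorticoid receptor nr3c1 had 0 to 4 tags, the mineralocorticoid receptor nr3c2 0 or 1 tag and the vitamin D receptor vdra 0 to 2 tags. The thyroid hormone receptor thrb had 1 to 7 tags and thraa 2 to 23. The level of thraa was 4.18 and 5.08 CPM in M+D- and 0.43 to 2.38 CPM in the remaining 6 libraries. A row at 0 allows up to 0.469 CPM (M+D+ library 1) to 1.783 CPM (M-D+ library 1), at 3 tags, and none of these receptors reached the filter of the test. Changes were not detectable at this depth for the receptors with 0 to 7 tags. The thraa levels of M+D- lay above those of all the remaining libraries, a pattern whose share over all rows was not counted. Of all tested rows, 27.4% had both M+D- libraries above both M-D- libraries. The thraa difference was not tested.

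Other genes of the same pathways were taken from 6 lists, from which the 4 genes were left out. Together the lists hold 80 different tested rows, of which 24 passed the limma test between M+D+ and the averaged controls, 1 higher and 23 lower. Of all rows, 23.0% were called in that comparison, 2.32% higher and 20.7% lower. The median log2 difference of the 80 rows was -0.65, beside -0.57 for all rows. EdgeR called 6 of the 80 rows higher and 7 lower, and DESeq2 called 7 of them higher and 7 lower. After TMM scaling 4 of them rose and 8 fell, with a median of -0.21, and with library 1 of M+D+ left out none rose and 2 fell.

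Steroid enzymes had 14 tested rows, of which 4 fell in M+D+ and none rose, with a median of -0.54. They were the short-chain dehydrogenase gene hsdl2 (109.06 and 156.77 CPM in M+D+, 356.91 to 549.54 CPM in controls, limma adjusted p = 0.00847), hsd17b14, the ferredoxin gene fdx1, which passes electrons to mitochondrial P450 enzymes, and hsd17b3, whose human counterpart makes testosterone. The last was named after its value was seen (log2 difference -3.00 ± 0.74, limma adjusted p = 0.0259). After TMM scaling hsdl2 alone was called (adjusted p = 0.0368), which also passed edgeR (adjusted p = 0.0466) but did not pass with library 1 of M+D+ left out.

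Among 15 rows of the dhrs and rdh families and related dehydrogenases, 6 fell in M+D+ and none rose, with a median of -1.05. The retinol dehydrogenase gene rdh10a, which makes retinal, had 8.44 and 7.68 CPM in M+D+ and 32.53 to 69.54 CPM in the 6 controls (log2 difference -2.36 ± 0.25, limma adjusted p = 0.00438). The fatty acid reductase gene decr1 differed by -2.57 ± 0.33 (limma adjusted p = 0.00618). Both passed in all 18 other settings, and dhrs1 (-1.85 ± 0.28, limma adjusted p = 0.00847) in 17, the exception being the fit without library 1 of M+D+. These 3 were the calls of the list after TMM scaling.

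Of 22 rows of the glucocorticoid receptor pathway and known targets, 6 fell and 1 rose in M+D+, with a median of -0.26. The receptor's co-chaperone fkbp5, a target of glucocorticoids in mammals, had 16.25 and 22.00 CPM in M+D+ and 40.55 to 77.87 CPM in the 6 controls, and fell by 1.64 ± 0.30 (limma adjusted p = 0.012; 0.0293 after TMM scaling). The glucose-6-phosphatase gene g6pc1a.2 differed by -2.04 ± 0.31 (limma adjusted p = 0.00847) and the co-chaperone gene ptges3b by -1.45 ± 0.34 (limma adjusted p = 0.0222), though ptges3b overlapped between M+D+ (1.09 and 1.75 CPM) and M+D- (1.99 and 0.88 CPM). This row reached the filter only through M-D+, where it is high (22.59 and 16.76 CPM), and was not called with M-D+ left out of the controls. The chaperone gene hsp90ab1, whose product holds steroid receptors ready for hormone, had 431.41 and 681.55 CPM in M+D+ and 165.13 to 311.89 CPM in controls, and rose by 1.35 ± 0.28 (limma adjusted p = 0.017). The balance of this list turned with the scaling: after TMM scaling 4 rows rose, hsp90ab1, dusp1, igfbp1b and sgk1, and 2 fell, fkbp5 and g6pc1a.2. With library 1 of M+D+ left out none of its rows was called, and with library 2 left out none rose and 3 fell.

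Of 8 thyroid hormone rows 2 fell in M+D+ and none rose, with a median of -0.78: dio1 and the corepressor gene ncor1 (-1.10 ± 0.27, limma adjusted p = 0.0249; 0.175 after TMM scaling). Among 15 rows of selenoproteins and selenocysteine incorporation, the class to which Dio2 belongs, 3 fell and none rose, with a median of -0.58. They were selenot2, the glutathione peroxidase gene gpx1a and selenof (limma adjusted p = 0.0176, 0.0396 and 0.0428), and 0 were called after TMM scaling. For selenof the M+D+ libraries (22.19 and 55.17 CPM) overlapped those of M+D- (52.18 and 49.51 CPM). Of 9 vitamin D rows 2 fell and none rose, with a median of -0.68. The sterol hydroxylase gene cyp27a1.2 had 2.03 and 3.49 CPM in M+D+ and 8.18 to 16.05 CPM in the 6 controls (-1.66 ± 0.30, limma adjusted p = 0.0113; 0.0282 after TMM scaling). The vitamin D-binding protein gene gc differed by -1.16 ± 0.28 (limma adjusted p = 0.0259, and 0.187 after TMM scaling). Its M+D+ libraries (1166.26 and 1814.56 CPM) overlapped those of M-D+ (1534.74 and 2347.9 CPM). With library 1 of M+D+ left out no row of the thyroid hormone, selenoprotein and vitamin D lists was called.

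Between M-D+ and M-D- 8 of the 80 rows were called higher and none lower, beside 9.79% of all rows called, 9.22% higher and 0.568% lower, with a median of 0.60 for the lists and 0.72 for all rows. The calls were cbr1 and fdx1 among steroid enzymes, nfkbiaa, sgk1, ptges3b and ptges3a in the glucocorticoid list, the thioredoxin reductase gene txnrd3 among selenoproteins and the cytochrome P450 gene cyp3c1 in the vitamin D list. The inhibitor of NF-kappa-B nfkbiaa had 23.18 and 27.18 CPM in M-D+ and 2.95 and 2.17 CPM in M-D- (log2 difference 2.88 ± 0.48, limma adjusted p = 0.0371). Both nfkbiaa and ptges3b entered the test only through their high values in M-D+, so their calls here carry no weight of their own. The kinase gene sgk1 had 121.26 and 53.23 CPM in M-D+ and 14.54 and 20.17 CPM in M-D- (2.17 ± 0.45, limma adjusted p = 0.0402). After TMM scaling and by edgeR 0 of the 80 rows were called here, with adjusted p = 0.104 and 0.122 for nfkbiaa, and with library 1 of M-D+ left out 1 row was, gpx1b. DESeq2 called 1 row higher and 5 lower, the opposite balance, with a median of -0.14. Leaving out either M-D- library or either M+D- library gave 0 calls, and leaving out library 2 of M-D+ gave 17 higher and 3 lower.

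No row of the dhrs and rdh list passed between M-D+ and M-D- at the main settings. The log2 difference of dhrs11b.2, which was chosen on such values, was the highest of all rows there. With a pseudocount of 5, and with the filter at 10 CPM, 1 row of the list was called higher. The smallest p-values of the list at the main settings belonged to dhrs13a.1 (1.80 ± 0.47, limma adjusted p = 0.0513) and rdh10a (0.88 ± 0.30, limma adjusted p = 0.0827). No thyroid hormone row passed limma at the main settings either. The transcription factor gene klf9, a thyroid hormone and glucocorticoid target in vertebrates, had 2.38 and 5.21 CPM in M-D+ and 17.49 and 13.66 CPM in M-D- (-1.85 ± 0.49, limma adjusted p = 0.052). It was called lower by DESeq2 (adjusted p = 0.00721), with the filter at 10 CPM (limma adjusted p = 0.0479) and with library 2 of M-D+ left out (limma adjusted p = 0.0425). The uncoupling protein gene ucp1, named after its value was seen, was called lower by DESeq2 (adjusted p = 0.0215) and with library 2 of M-D+ left out (limma adjusted p = 0.0301). The last setting also called usp33 higher (limma adjusted p = 0.0288), which otherwise differed by 1.75 ± 0.60 (limma adjusted p = 0.0823). The vitamin D-binding protein gene gc stood at 1534.74 and 2347.90 CPM in M-D+ and 3890.12 and 4466.58 CPM in M-D-. It did not pass limma at the main settings (-1.13, limma adjusted p = 0.0678), and was named after its value was seen. DESeq2 called 1 row of the vitamin D list lower, which is not identified here.

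Between M+D- and M-D- 0 of the 80 rows were called by limma, and DESeq2 called 1 lower, a row of the glucocorticoid list. The rows with the smallest p were the metallothionein gene mt2 (156.15 and 101.89 CPM in M+D-, 619.24 and 865.60 CPM in M-D-, log2 difference -2.53 ± 0.36, limma adjusted p = 0.246) and the tyrosine aminotransferase gene tat (0.97 ± 0.28, limma adjusted p = 0.506) in the glucocorticoid list. In the other lists they were cbr1 and fdx1 (0.97 and 0.78), rdh10b and dhrs1 (-1.38 and 0.67), ncor1 and rxrgb (0.58 and 0.69), gpx1b and gpx4a (-1.50 and 0.60), and cyp3a65 with rxrgb (1.08), at limma adjusted p-values from 0.506 to 0.707.

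**Figure D3:**
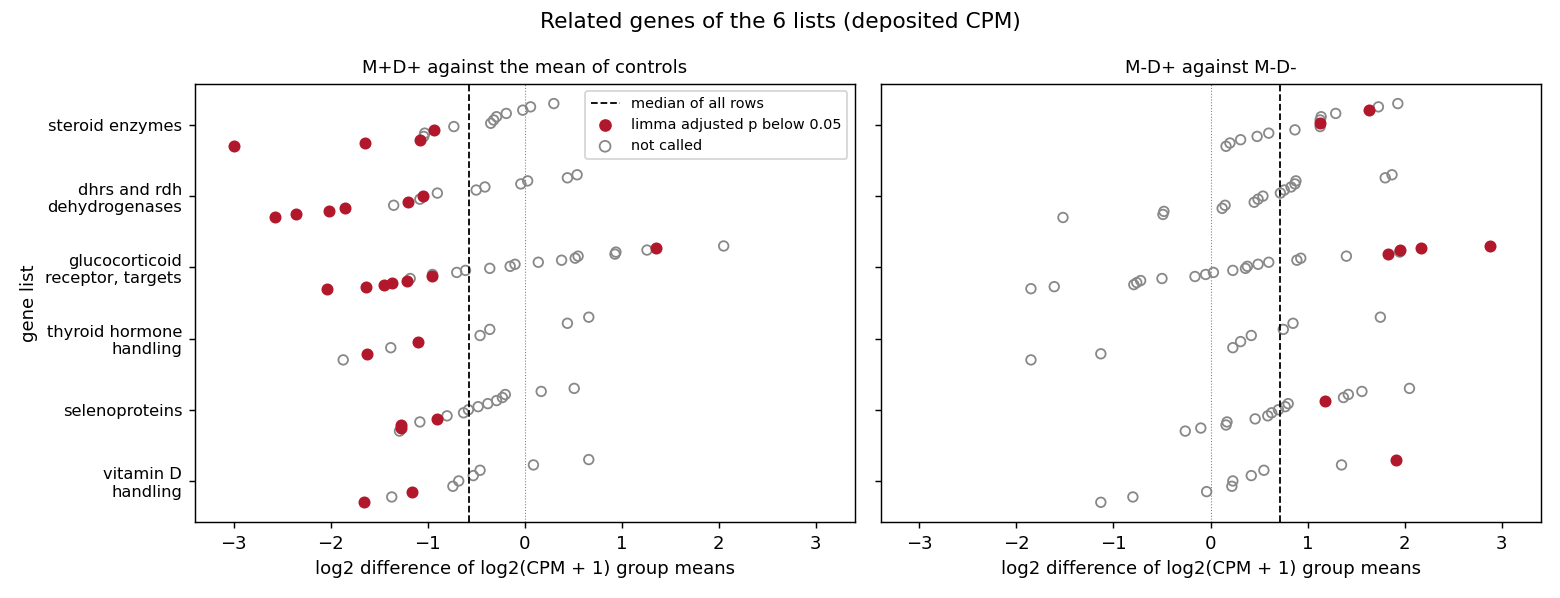
Log2 difference of group means of log2(CPM + 1) (x) for every tested gene of the 6 lists (y), for M+D+ against the averaged controls (left) and M-D+ against M-D- (right); filled points passed the limma test at an adjusted p below 0.05, open points did not, and the dashed line is the median of all tested rows (-0.57 and 0.72). In M+D+ 23 rows are called lower and 1 higher, and in M-D+ 8 are called higher, on deposited CPM.

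Markers of tissues and cell types other than hepatocytes were summed in CPM, and the sums were highest for the biliary and exocrine pancreas lists. Kidney tubule markers (6 of 9 genes listed) summed to 10.5 to 28.4 CPM in M+D+ and 35.1 to 36.0 CPM in M-D+. They summed to 16.1 to 20.5 CPM in M+D- and 15.2 to 20.2 CPM in M-D-. The kidney sums were led by cdh17 at 8.03 to 28.99 CPM, with slc12a3 at 0 to 0.22 CPM. The thyroid follicle list (2 of 5 genes listed) summed to at most 0.78 CPM in any library. Interrenal markers (4 of 11 listed) summed to 0.63 and 1.4 CPM in M+D+ and to 2.95 to 8.67 CPM in the controls, and cyp17a1 was at 0 to 0.43 CPM. Intestine markers (5 of 9 listed) ran from 1.09 to 17.8 CPM in M+D+, 3.18 to 29.1 in M-D+, 1.2 to 3.76 in M+D- and 13.6 to 20.2 in M-D-. Ovary markers (7 of 9 listed) ran from 1.41 to 25.1 CPM in M+D+, 9.73 to 61.8 in M-D+, 3.75 to 4.59 in M+D- and 20 to 108 in M-D-. Both sums were lower in M+D- than in M-D-, as cyp24a1 was. In M-D+, where cyp24a1 was also lower than in M-D-, both sums overlapped those of M-D-. Their part in the cyp24a1 values was not tested. Exocrine pancreas markers (14 of 16 listed) summed to 663 to 1040 CPM in M+D+ and 1240 to 4000 CPM in the controls. Erythrocyte markers (7 of 8 listed) summed to 178 to 242 CPM in M+D+ and 384 to 540 CPM in the controls, also without overlap. Of single tested rows 26.9% lay below all control libraries in M+D+. The erythrocyte markers did not move together, since hbba1 and hemgn were called lower in M+D+ and alas2 higher. After TMM scaling hemgn was still called lower and alas2 higher (limma adjusted p = 0.0336 and 0.0102), but hbba1 was not called (0.22). The level of alas2 was 24.53 and 26.54 CPM in M+D+ and 7.5 to 14.86 CPM in the controls (limma adjusted p = 0.0182). Leukocyte markers (8 of 10 listed) stood at 745 CPM in M-D+ library 2 and 199 to 316 CPM in the remaining libraries, and biliary markers (5 of 6 listed) at 5140 CPM in M-D+ library 2 and 1360 to 3090 CPM elsewhere. Skin markers (4 of 8 listed) summed to 12.5 to 18.9 CPM in M+D+ and 16.7 to 65.0 CPM in the controls. The part of these markers in the values of the 4 genes was not tested.

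The rows whose pattern over the 8 libraries was most like each gene were found by Pearson's r of log2(CPM + 1) among all tested rows with a symbol. For hsd11b2 they were apoba, an apolipoprotein B gene (r = 0.993), ehhadh, a peroxisomal enzyme of fatty acid oxidation (0.984), and the fetuin gene ahsg2 (0.982). For dio2 they were igf1, the insulin-like growth factor 1 gene (0.990), ik (0.980) and the glutathione transferase gene gstt2 (0.980). The level of igf1 was 1.25 and 5.94 CPM in M+D+, 21.99 and 26.28 CPM in M-D+, 10.36 and 9.50 CPM in M+D- and 10 and 9.76 CPM in M-D-, with M-D+ highest and M+D+ lowest as for dio2. For dhrs11b.2 they were the SNARE gene vamp4 (0.962), the endosomal GTPase gene rab5c (0.959) and the COP9 signalosome gene cops6 (0.958). No row came as close to cyp24a1, whose nearest were nudcd3 (0.858), the ribosomal protein gene rps4x (0.848) and the elongation factor gene eef1b2 (0.824). The 8 libraries fall into 4 groups and share depth and scaling over all rows, so these values of r are a description.

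**Figure D4:**
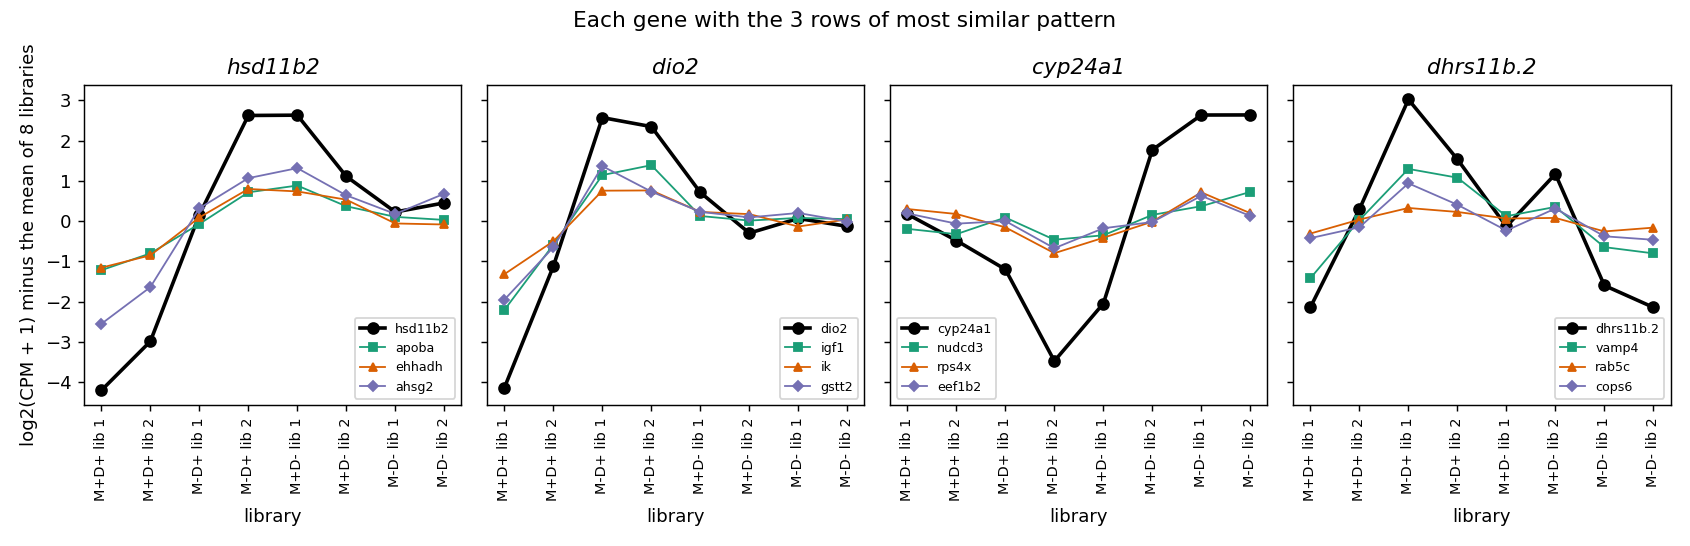
Log2(CPM + 1) minus its mean over the 8 libraries (y) in each library (x; lines only join points of 1 gene) for each enzyme gene, in black, and the 3 rows most like it. The amplitude of the enzyme genes exceeds that of the rows beside them, and the rows nearest to cyp24a1 (r = 0.858 to 0.824) follow it less closely than those nearest to hsd11b2 (r = 0.993 to 0.982).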

How the data were processed

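The authors deposited a table per library that gives each transcript's GI number, accession and CPM value, scaled to a common total. The sources used here do not give the aligner or the transcript set. Transcripts missing from a library's table were set to 0. Dividing by the step of each library gave whole tags (100.0% of values within 0.1 tag). Symbols came from RefSeq accessions of assembly GRCz12tu (10410 of 15600 rows) and serve as names only.

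The test was limma 3.58.1 (R 4.3.3) on log2(CPM + 1) with an intensity trend, for the 4577 rows with at least 5 CPM in at least 2 libraries, in 1 fit of 4 group means (4 residual and 4.07 prior degrees of freedom), two-sided, with Benjamini-Hochberg adjustment over all rows and a threshold of 0.05. EdgeR 4.0.16 and DESeq2 1.42.0 on the recovered tags, TMM scaling, pseudocounts of 0.5 and 5, other filters, robust variance, a replicate block and leaving out each library were alternatives. The procedure was tested on simulated data with rows changed in M+D- only. Those data did not copy the scaling shift of M-D+ and M+D+, so they do not bear on calls that change with the scaling. The genes and lists were chosen with earlier results of these data known. Named were the 4 genes, their paralogs and receptors, the 3 rows most like each gene, and per list and comparison up to 3 called rises and 3 called falls with the smallest p, or else the 2 smallest p.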

Additional observations from a re-analysis of the deposited data

Results flagged for a closer look

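For dio2 the fish on doxycycline differed from their undosed siblings in opposite directions in the 2 genotypes, and in transgenic fish the drug also switches on Myc, so drug and Myc cannot be told apart there: M+D+ minus M+D- was -2.84 on the log2(CPM + 1) scale and M-D+ minus M-D- was 2.49, with every library of a doxycycline group on the same side of its undosed group (10.78 and 94.62 CPM in M+D+ against 339.58 and 168.20 CPM in M+D-; 1236.94 and 1058.76 CPM in M-D+ against 216.71 and 189.08 CPM in M-D-). The difference between the genotypes was not tested, since dio2 was chosen on these values. Of all tested rows on deposited CPM, 42.7% had both M+D+ libraries below both M+D- libraries. Both M-D+ libraries lay above both M-D- libraries in 59% of rows. The share of rows with both patterns was not counted. On deposited CPM the median of all tested rows went the same way as dio2. It was -0.3 for M+D+ minus M+D- and 0.72 for M-D+ minus M-D-. These medians were -0.07 and -0.04 after TMM scaling. The dio2 libraries kept their sides after it: M+D+ stood at 15.5 and 110 CPM against 356 and 186 CPM for M+D-, while M-D+ stood at 709 and 742 CPM against 266 and 197 CPM for M-D-.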

How the results depend on the processing

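Called rows between M+D+ and the averaged controls numbered 1052, and 493 after TMM scaling, 556 without a filter, 449 by edgeR, 534 by DESeq2, 377 with the controls averaged without M-D+, and 67 (without M+D+ library 1) to 1323 with 1 library left out. The share of lower calls was 89.9% on deposited CPM and 51.7% after TMM scaling. Most calls were higher in M+D+ by edgeR (300 higher, 149 lower) and by DESeq2 (326 higher, 208 lower). In M-D+ against M-D- 448 rows were called, 225 and 692 with pseudocounts of 0.5 and 5, 8 after TMM scaling, 3 without a filter, 0 by edgeR (822 at an unadjusted p below 0.05), 148 by DESeq2, and 0 to 617 with 1 library left out; 5.80% of calls were lower on deposited CPM and 100% after TMM scaling. In M+D- against M-D- the counts were 0, 36 by DESeq2 and 0 to 1 with 1 library left out. With the replicate block 0 rows were called in M-D+ against M-D-. Whether the library numbers pair the samples is not known from the labels. The differences of library 1 minus library 2 correlated between groups at -0.333 to 0.045, which cannot exclude a weak pairing.

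The hsd11b2 difference in M+D+ was -3.55 with a pseudocount of 5 (-5.41 to -4.19 with 1 library left out), and that of dio2 -2.36 by DESeq2 (-5.02 to -2.0). That of cyp24a1 turned to 0.26 after TMM scaling and was -1.41 with the controls averaged without M-D+ (-0.85 to 0.43, positive at 0.43, 0.17 and 0.12), and that of dhrs11b.2 was -2.45 to -0.01. In M-D+ against M-D-, leaving out 1 library gave -0.18 to 2.29 for hsd11b2, 2.38 to 2.61 for dio2, -6.12 to -3.84 for cyp24a1 and 3.41 to 4.90 for dhrs11b.2. In M+D- against M-D- it gave 0.77 to 2.29, -0.27 to 0.74, -4.69 to -0.87 and 1.74 to 3.04, the negative dio2 value without M+D- library 1. The cause of these changes was not tested.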

Other observations

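Some related genes stood far apart between the 2 M-D+ libraries, as hsd11b2 did. The retinol dehydrogenase gene rdh10b had 310.28 and 81.77 CPM in M-D+ libraries 1 and 2 and 38.62 and 47.92 CPM in M-D-, and the glutathione peroxidase gene gpx1b had 22.59 and 181.90 CPM in M-D+ and 15.90 and 13.88 CPM in M-D-. Neither passed the test in M-D+ (limma adjusted p = 0.0944 and 0.11). Of the interrenal markers the regulator gene nr5a1a was the only one that reached the filter. It had 0.47 and 1.05 CPM in M+D+ (3 tags in each library) and 2.04 to 6.77 CPM in the 6 controls. On deposited CPM it passed the test between M+D+ and the averaged controls (log2 difference -1.65, limma adjusted p = 0.0403). After TMM scaling it did not pass (limma adjusted p = 0.0741). These genes were named after their values were seen.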
